A study of Mus musculus with 12 samples.

Results

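Claudins, keratins and cadherins build the junctions and the filament network of an epithelium, and their RNA levels were followed in epiblast-like cells (EpiLCs) with and without Kdm5c. The genes were taken by name from the 22911 genes of the deposited tables, as every numbered Cldn, Krt or Cdh gene plus Epcam and Vim. The rule gave 98 genes, of which 25 are claudins, 48 are keratins and 23 are numbered cadherins. The numbered cadherins include genes such as Cdh13, Cdh16, Cdh17 and Cdh23 that are not classical cadherins, so the group is called numbered cadherins here. Cldn25 was taken under its listed name, although that symbol is a synonym of both Cldnd1 and a claudin pseudogene in RefSeq, and the annotation used here places it on chromosome 16.

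RNA-Seq was performed on EpiLCs of 4 genotypes with 3 libraries each, namely Kdm5c fl/fl and Kdm5c Δ/Δ in females and Kdm5c flY and Kdm5c ΔY in males, which the labels call Smcx wild type and Smcx knockout. Kdm5c, also named Smcx, encodes an X-linked histone demethylase, the fl allele is flanked by loxP sites, and the Δ allele lacks exons 11 and 12. Embryonic stem cells, one independent line per library, had been derived on mouse embryonic fibroblasts, were grown with 2i and LIF on gelatin for 4 passages, and were then moved for 48 h to FGF2 and Activin A on fibronectin. The labels give the strain as C57BL/6J, whereas the floxed allele is stated to be on a mixed background.

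Epithelial cells are held together by adherens junctions, in which classical cadherins bind each other between cells, and are sealed by tight junctions, whose strands are made of claudins. Keratins are intermediate filaments that form only as pairs of a type I and a type II chain, and simple, single-layered epithelia use Krt8 or Krt7 as the type II chain with Krt18, Krt19 or Krt20 as the type I chain. Epcam is an adhesion protein of epithelia and of pluripotent cells, Cdh1 (E-cadherin) joins cells of the epiblast, and Cdh2 (N-cadherin) and the filament protein Vim are widely used marks of mesenchymal cells.

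The values are normalized counts, which are reads on a gene divided by a size factor of the library. The deposited tables give the mean of each genotype, and the count of each library was recovered from these means as whole reads. The libraries of each genotype are called A, B and C by falling size factor and held between 5516216 and 11092731 reads. Kdm5c was lower in the 3 Δ/Δ libraries, at 1406, 1447 and 1505 normalized counts, than in the 3 fl/fl libraries, at 2336, 2429 and 2315 (log2 change -0.70 ± 0.05 (SE), limma adjusted p = 4.53e-09). In males it was 1897, 1943 and 1976 in ΔY and 2195, 2110 and 2371 in flY, which do not overlap, but the change of -0.20 ± 0.10 did not pass the threshold (limma adjusted p = 0.271). Counts over the whole gene include exons that the Δ allele keeps, so this check of the labels is a partial one. All 8 EpiLC markers of the list used were detected in every genotype, but not at the same level. In females 4 of them rose and 3 fell, and in males 3 fell in ΔY (Fgf5, Pou3f1 and Otx2), with means of 1363 in flY and 408 in ΔY for Otx2 (limma adjusted p = 0.000508). Of 9 markers of naive stem cells, 8 rose in females, with summed counts of 1143 to 1190 in fl/fl and 3320 to 3482 in Δ/Δ, and 6 rose in males, with 1505 to 2670 in flY and 4479 to 7620 in ΔY. Marker counts here and below are to be read beside the shares of all genes tested. These were 25.4% higher and 24.7% lower in females, and 4.21% higher and 3.59% lower in males. The knockout and control cells thus differed in markers of the cell state, whose part in the results below was not tested. In males, flY library B and ΔY library A stood apart from the other libraries of their genotype. The 13 markers of visceral or primitive endoderm summed to 5761 normalized counts in flY library B against 3220 and 3087 in flY libraries A and C, and to 1021 in ΔY library A against 7563 and 7726 in ΔY libraries B and C. Libraries A and C of flY also held more reads on genes that were near silent elsewhere. Over 7073 genes with a mean under 3 in the other genotypes, these libraries summed to 16704 and 18206 normalized counts, and the remaining 10 libraries to between 3067 and 4267. The choice of genes by low counts in the other genotypes itself favours higher sums in flY.

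Most of the 98 genes were barely read in EpiLCs. Each had a read in at least 1 library, 70 had a mean under 10 normalized counts over the 12 libraries, 28 had at least 10, and 17 at least 50. Per kb of exon, the highest level in fl/fl females was that of Krt8, at 1799 normalized counts per kb. Epcam followed at 1431, Krt19 at 1062, Cldn4 at 1035, Cldn6 at 951 and Krt18 at 925, then Vim at 471 and Cdh1 at 420. Expression was thus led by Krt8, Krt18 and Krt19, by Epcam and by a pair of claudins, while Krt7 and Krt20 stood at 19.7 and 16.9 per kb. Cldn7 stood at 308, Cldn3 at 153 and Cldn12 at 145 per kb, while the remaining cadherins were low, with 48.3 for Cdh24, 43.5 for Cdh3 (P-cadherin) and 22.7 for Cdh2. The keratins of stratified epidermis were near the floor. Krt5, the type II chain of the basal epidermal layer, had at most 4 reads in any library, and its partner Krt14 had a mean of 8.58 normalized counts in fl/fl females, 17.9 in Δ/Δ, 7.24 in flY and 9.13 in ΔY.

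The first question was what loss of Kdm5c did to these genes in each sex. In females, 87 of the 98 had a read in the 6 libraries and were tested, and 22 of them (25.3%) fell and 11 (12.6%) rose in Δ/Δ cells. Over all 19572 genes tested in females, 24.7% fell and 25.4% rose, so falls were about as frequent among the 87 as among all genes and rises were less frequent, a difference that was not tested. The calls depended on level. Of the 28 with a mean of at least 10 over the 12 libraries, 13 fell and 6 rose, and of the 59 below it, 9 fell and 5 rose. The shares of all genes were not split by level. The median log2 change of the 87 was -0.24, beside 0.0037 for all genes. In males, 97 were tested, and 6 rose (Cldn4, Krt7, Krt8, Krt18, Krt42 and Vim) and 2 fell (Krt23 and Krt78) in ΔY cells, where 4.21% of 21872 genes rose and 3.59% fell. The median of the 97 was -0.51, beside -0.16 for all genes tested. In males the median was 0.25 for the 28 genes with a mean of at least 10 over the 12 libraries and -0.90 for the 69 below it, and in females it was -0.30 and -0.066. Without flY library B and ΔY library A, a choice made after the data had been seen, 10 of the 97 rose and 31 fell, where 17.7% of all genes rose and 25.3% fell, and 25 of the 31 had a mean under 10.

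The sexes were then compared through the interaction of sex and genotype. Of the 98 genes, 12 had a change that was higher in males than in females (Krt7, Krt8, Krt18, Krt19, Krt20, Cldn3, Cldn4, Cldn6, Cldn7, Cdh1, Cdh24 and Vim), and 5 had one that was lower (Cdh5, Cdh6, Krt13, Krt23 and Krt28). Over all 22014 genes tested, 10.6% had a higher and 10.7% a lower change in males. Without flY library B and ΔY library A the counts were 15 and 28, where 17.9% of all genes had a higher and 27.8% a lower change, and all 17 calls were among the 43. All 5 simple-epithelium keratins and each of Cldn3, Cldn4, Cldn6 and Cldn7 were among the 12. The plot of male against female changes shows these genes left of and above the diagonal, with Cdh5 and Cdh6 in the opposite corner.

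**Figure D1:**
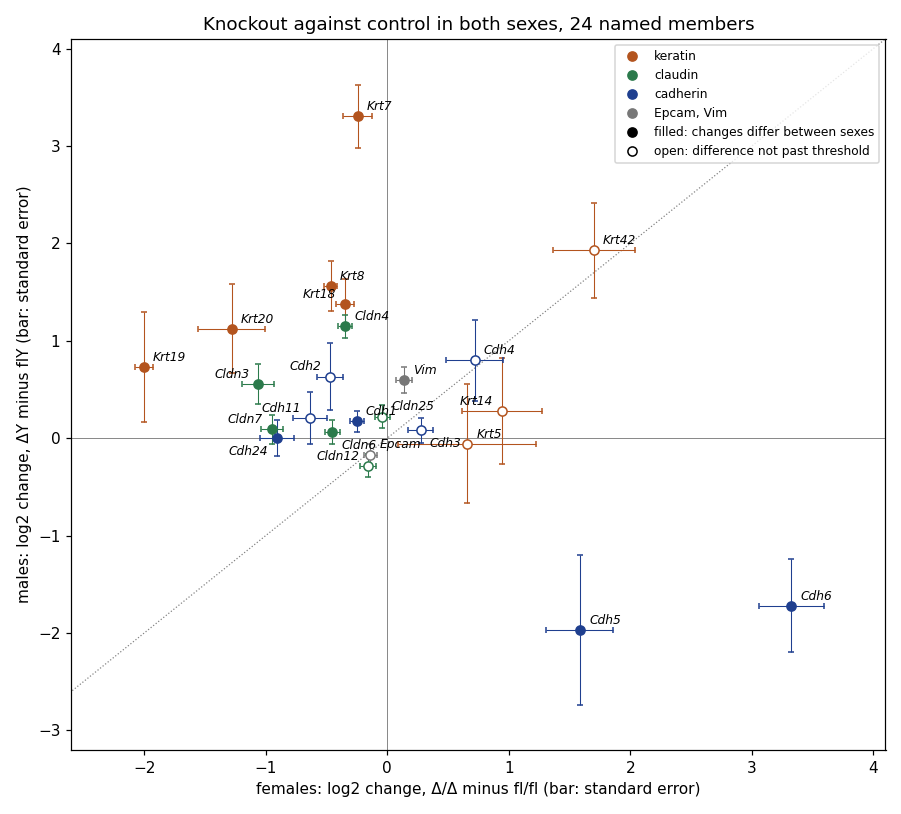
Log2 change of the 24 named genes in knockout against control, in females on the horizontal axis and in males on the vertical axis, with standard errors as bars and the line of equal change dotted. Filled points passed the test of the difference between the sexes (limma interaction, adjusted p under 0.05); Krt7 lies highest at 3.31 in males and -0.24 in females, and Cdh6 farthest right at 3.33 in females and -1.72 in males.

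Krt8 and Krt18, the filament pair of simple epithelia, lie 23.9 kb apart on chromosome 15 and moved together (mm9: Krt8 at chr15:101827142-101834773 on the minus strand, Krt18 at chr15:101858647-101862457 on the plus strand). Krt8 had 3106, 3482 and 3153 normalized counts in the fl/fl libraries A, B and C and 2379, 2290 and 2376 in Δ/Δ. Male values were 1833, 1089 and 1835 in flY and 3129, 5560 and 5398 in ΔY. The genotypes did not overlap in either sex, and the order was opposite, with controls above mutants in females and below them in males. Krt8 fell by 0.47 on the log2 scale in females (SE 0.06, limma adjusted p = 1.55e-06) and rose by 1.56 in males (SE 0.26, adjusted p = 0.00835), and these changes differed by 2.03 (SE 0.30, adjusted p = 0.000336).

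Krt18 had 1228, 1456 and 1201 normalized counts in fl/fl and 988, 978 and 1080 in Δ/Δ, and 1147, 671 and 1125 in flY and 1739, 3200 and 2714 in ΔY. Its changes were -0.35 ± 0.07 in females (limma adjusted p = 0.000489) and 1.37 ± 0.26 in males (adjusted p = 0.0137), with a difference of 1.72 ± 0.30 (adjusted p = 0.00119). Without flY library C, the male rise of Krt18 was 1.49 with an adjusted p of 0.0669. Per kb, Krt8 stood at 1.71 to 2.04 times Krt18 in the 6 female libraries and at 1.24 to 1.54 times in the 6 male libraries.

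These are bulk samples, in which fewer cells of a type and less RNA per cell cannot be told apart. The summed count of all 48 keratins was 6537, 7327 and 6566 in fl/fl, 4142, 3957 and 4266 in Δ/Δ, 4067, 2256 and 4117 in flY and 5833, 11677 and 10924 in ΔY. The ΔY libraries B and C were the highest and ΔY library A lay below the fl/fl libraries. A list of 9 fibroblast feeder genes summed to 2912 to 2979 in fl/fl, 1205 to 1302 in Δ/Δ, 1029 to 1175 in flY and 5022 to 5993 in ΔY. Of these 9, 5 fell in females and 5 rose in males, led by the collagen gene Col1a1, at 1271, 1270 and 1330 in fl/fl, 279, 285 and 281 in Δ/Δ, 224, 251 and 200 in flY and 1900, 2675 and 2420 in ΔY. The fibroblast genes Lum and Dcn had at most 8.78 normalized counts in any library. A list of 10 trophectoderm genes, the outer layer of the blastocyst, in which Krt8, Krt18 and Krt7 are well known, summed to 205 to 221 in fl/fl, 382 to 428 in Δ/Δ, 187 to 204 in flY and 670 to 1713 in ΔY. Of these, 9 were tested in females, and 2 rose and 2 fell. Tead4 rose there from a mean of 60.0 to 240 and Hand1 from 53.7 to 104, while Gata3 fell from 47.2 to 21.6 and Ascl2 from 42.5 to 25.9. In males 6 of the 10 rose, where 4.21% of all genes did. Among the 6 were Hand1, from 17.9, 25.8 and 23.0 in flY to 333, 902 and 686 in ΔY, and Gata3, from 37.9, 7.24 and 40.2 to 89.3, 249 and 208. The trophectoderm factor Cdx2 was low but also among the 6, from 0.997, 3.10 and 1.44 in flY to 13.8, 11.1 and 15.5 in ΔY (limma adjusted p = 0.0245). Elf5, another such factor, had at most 4.06 normalized counts and did not pass. Tpbpa was at 0 in all 6 female libraries, and Prl3d1 was at 0 in the 3 ΔY libraries. The part of such cells in the keratin and claudin changes was not tested.

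**Figure D2:**
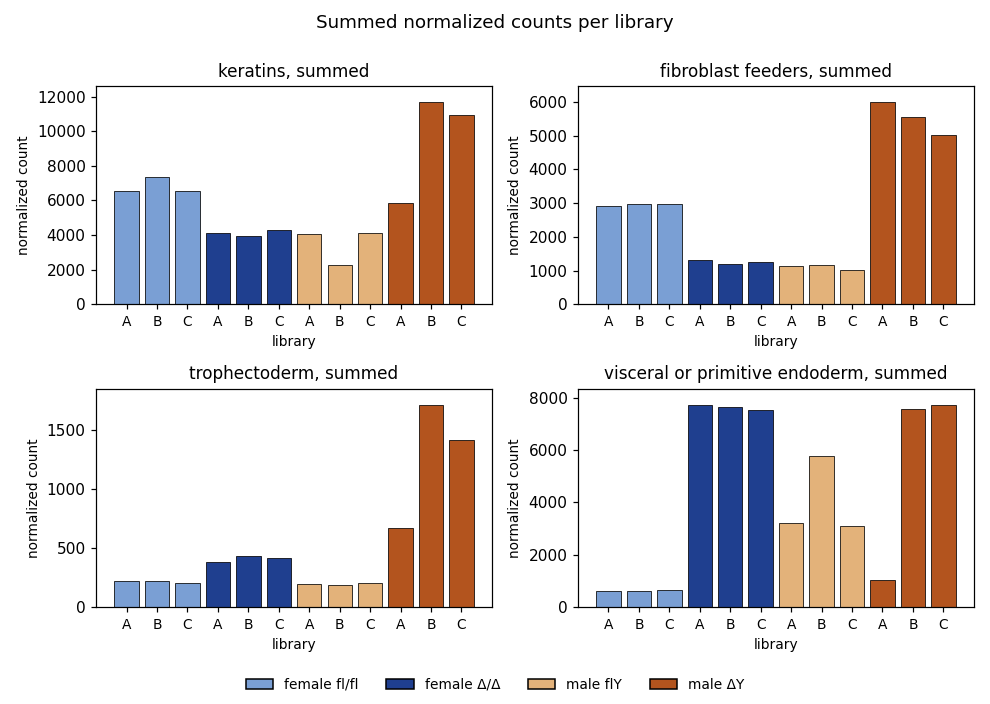
Summed normalized counts per library of the 48 keratins and of 3 lists of cell type markers (9 fibroblast feeder, 10 trophectoderm and 13 visceral or primitive endoderm genes), with bars from 0 and libraries A, B and C of each genotype side by side. Feeder genes were highest in the 3 ΔY libraries (5022 to 5993) and next highest in fl/fl (2912 to 2979), and ΔY library A was lower than B and C for keratins (5833), trophectoderm (670) and endoderm (1021).

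Krt7, the other type II chain of simple epithelia, lies 566 kb from Krt8 on chromosome 15 (chr15:101241474-101260744, plus strand) and had the largest male rise of the named genes. It had 158, 135 and 125 normalized counts in fl/fl, 113, 114 and 123 in Δ/Δ and 99.7, 68.2 and 96.3 in flY, but 479, 1198 and 1141 in ΔY. All 3 ΔY libraries were above every other library, and library A was the lowest of them. The mean was 10.7 times higher in ΔY than in flY (log2 change 3.31 ± 0.32, limma adjusted p = 0.000731). In females the change of -0.24 ± 0.12 did not pass the threshold (adjusted p = 0.0951), and the sexes differed by 3.55 ± 0.39 (adjusted p = 3.08e-05). Even so, Krt7 remained a minor type II chain, at 0.04 to 0.06 of the per-kb level of Krt8 in ΔY and 0.01 to 0.02 elsewhere.

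Krt19, a type I chain of simple epithelia, showed the largest female fall of the named genes. It had 1891, 2102 and 1918 normalized counts in fl/fl and 500, 433 and 542 in Δ/Δ, a change of -2.00 ± 0.07 (limma adjusted p = 2.5e-13). Per kb it stood above Krt18 in fl/fl, at 1.09 to 1.21 times, and below it in the other 9 libraries, at 0.15 to 0.54 times. Male libraries overlapped, with 735, 270 and 799 in flY and 337, 1481 and 1456 in ΔY. The male change of 0.73 ± 0.57 did not pass (adjusted p = 0.439), whereas without flY library B and ΔY library A it was 0.94 with an adjusted p of 0.000128. The difference between the sexes was 2.74 ± 0.67 (adjusted p = 0.0102).

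Krt20, a type I chain best known from gut epithelium, was low and followed the same order. It had 30.2, 29.6 and 37.8 normalized counts in fl/fl, 10.2, 14.3 and 14.1 in Δ/Δ, 35.9, 17.6 and 25.9 in flY and 28.4, 86.2 and 73.4 in ΔY. Krt20 fell by 1.28 in females (SE 0.28, limma adjusted p = 0.000748), its male change of 1.12 ± 0.45 did not pass (adjusted p = 0.166), and the difference was 2.40 ± 0.55 (adjusted p = 0.00693). The male change passed at 1.61 without ΔY library A (adjusted p = 0.00858).

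Krt42, another type I keratin, was the exception among the keratins in that it rose in both sexes. It had 4.02, 6.59 and 5.56 normalized counts in fl/fl and 21.9, 18.5 and 18.2 in Δ/Δ (1.70 ± 0.34, limma adjusted p = 0.000359). In males it had 6.98, 14.5 and 4.31 in flY and 25.2, 39.5 and 33.1 in ΔY (1.93 ± 0.49, adjusted p = 0.0428). The male call was lost without flY library A, without flY library C, or without ΔY library B or C (adjusted p = 0.146 to 0.167). Krt14 rose in females (0.95 ± 0.33, adjusted p = 0.0231), from 8.05, 8.78 and 8.89 to 18.8, 12.6 and 22.2. Its male change was 0.28 ± 0.54 (adjusted p = 0.75), but the difference between the sexes did not pass (-0.67 ± 0.60, adjusted p = 0.463). Its female call was lost without fl/fl library A or without Δ/Δ library A or C (adjusted p = 0.0534 to 0.0947). Krt14, Krt16, Krt17 and Krt42 are close relatives whose reads of 50 bp could be lost or split where their sequences coincide. Krt5 had means of 0.67, 1.63, 2.59 and 1.91 normalized counts in fl/fl, Δ/Δ, flY and ΔY, with no change that passed.

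**Figure D3:**
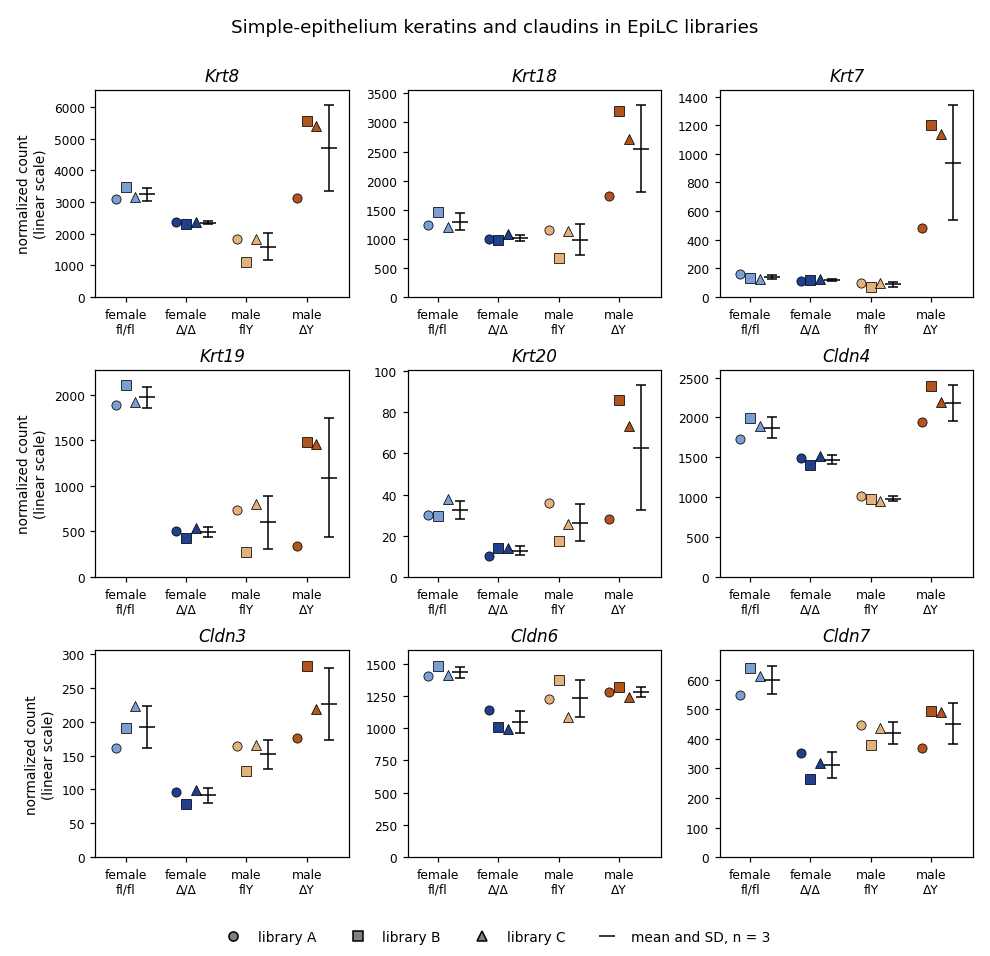
Normalized counts of 5 simple-epithelium keratins and 4 claudins in each of the 12 libraries, on linear axes that start at 0, with the mean and SD of the 3 libraries beside them. In females fl/fl lies above Δ/Δ in all 9 panels, and in males ΔY lies above flY with no overlap for Krt8, Krt18, Krt7, Cldn4 and Cldn3.

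Cldn4, a claudin of simple epithelia, showed the same order of genotypes as Krt8 (chr5:135420996-135422804, minus strand). It had 1732, 1987 and 1899 normalized counts in fl/fl, 1489, 1406 and 1513 in Δ/Δ, 1013, 976 and 950 in flY and 1945, 2389 and 2200 in ΔY. The genotypes did not overlap in either sex. Cldn4 fell by 0.35 in females (SE 0.06, limma adjusted p = 9.08e-05) and rose by 1.15 in males (SE 0.12, adjusted p = 0.000816), and the difference of 1.496 (SE 0.13) had the smallest adjusted p of the named genes (3.73e-06).

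Cldn3 lies 39.3 kb from Cldn4 on the opposite strand (chr5:135462084-135463342). It had 162, 191 and 223 normalized counts in fl/fl and 95.6, 79.1 and 99.0 in Δ/Δ, a fall of 1.06 (SE 0.13, limma adjusted p = 1.98e-06). In males it had 164, 127 and 165 in flY and 176, 283 and 219 in ΔY, which did not overlap, but the change of 0.55 ± 0.21 did not pass (adjusted p = 0.135). Without ΔY library A it was 0.72 and passed (adjusted p = 0.0195), and without flY library B as well it was 0.60 (adjusted p = 0.0146). The sexes differed by 1.61 ± 0.26 (adjusted p = 0.000639). Per kb, Cldn4 stood at 10.6 to 12.4 times Cldn3 in Δ/Δ and at 4.00 to 7.68 times in the other 9 libraries.

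Cldn6, a claudin of early embryonic epithelia, and Cldn7, a claudin of many epithelia, changed in females. Cldn6 had 1405, 1483 and 1407 normalized counts in fl/fl and 1143, 1012 and 989 in Δ/Δ (-0.45 ± 0.06, limma adjusted p = 7.21e-06), and overlapping values in males, 1225, 1376 and 1088 in flY and 1277, 1320 and 1244 in ΔY (0.06 ± 0.12, adjusted p = 0.74). Cldn7 had 547, 640 and 611 in fl/fl and 352, 265 and 317 in Δ/Δ (-0.95 ± 0.09, adjusted p = 9.8e-08), and 447, 378 and 437 in flY and 370, 493 and 490 in ΔY (0.09 ± 0.15, adjusted p = 0.708). The male changes of both did not pass, and the sexes differed by 0.52 ± 0.13 for Cldn6 (adjusted p = 0.0122) and by 1.04 ± 0.19 for Cldn7 (adjusted p = 0.0015). Cldn9 lies 0.138 kb beyond the 3′ end of Cldn6 on the opposite strand, and whether the counting used strand is not given in the sources used here, so reads of the pair may be mixed. Cldn9 had means of 21.8, 12.7, 17.5 and 24.5 in fl/fl, Δ/Δ, flY and ΔY, and its female change of -0.76 ± 0.33 did not pass by limma on log2 values (adjusted p = 0.0645) but passed as lower by limma voom.

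For Cldn12 and the gene listed as Cldn25 no change passed. Cldn12 had means of 592 ± 34.0 (SD, n = 3) in fl/fl, 531 ± 23.6 in Δ/Δ, 564 ± 42.0 in flY and 463 ± 18.7 in ΔY. Cldn25 had means of 537 ± 15.0, 522 ± 12.4, 429 ± 33.9 and 499 ± 18.6 in the same order. Their changes were between -0.28 and 0.22 and passed in neither sex (limma adjusted p = 0.0599 to 0.611), but Cldn12 passed in females under 4 of the alternatives and in males under 2.

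The other 18 claudins had means under 10. Among them Cldn5, the claudin of endothelium, rose in females from 3.02, 3.29 and 1.11 normalized counts to 11.8, 10.9 and 9.09 (1.80 ± 0.41, limma adjusted p = 0.00113). Cldn1, a claudin of epidermis, fell from 18.1, 5.49 and 8.89 to 3.13, 1.68 and 2.02 (-1.73 ± 0.44, adjusted p = 0.0031). Cldn23 fell and Cldn14, which had no read in fl/fl, passed as higher at up to 2.35 normalized counts, calls that were each lost in 4 of 6 fits with 1 library left out (adjusted p = 0.0661 to 0.224). These genes of low counts, and the keratins and cadherins of low counts named below, were picked for mention with their values in view. With all 6 male libraries, Cldn4 was the single claudin that passed in males.

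For Krt7, Krt8, Krt18 and Cldn4, chosen from the genes that rose in ΔY cells, the 250 bases before the transcription start are shown. They are from RefSeq on GRCm38.p6, a later build than the mm9 coordinates above, written 5′ to 3′ on the strand of the gene, and capitals mark CACCTG, the E-box that SNAI and ZEB factors bind, in either orientation.
Krt7 (chr15:101412153-101412402, plus strand): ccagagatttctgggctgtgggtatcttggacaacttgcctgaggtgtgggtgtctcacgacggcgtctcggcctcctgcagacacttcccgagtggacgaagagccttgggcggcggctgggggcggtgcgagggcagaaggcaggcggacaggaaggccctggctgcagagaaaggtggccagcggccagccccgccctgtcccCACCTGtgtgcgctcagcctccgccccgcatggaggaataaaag
Krt8 (chr15:102004343-102004592, minus strand): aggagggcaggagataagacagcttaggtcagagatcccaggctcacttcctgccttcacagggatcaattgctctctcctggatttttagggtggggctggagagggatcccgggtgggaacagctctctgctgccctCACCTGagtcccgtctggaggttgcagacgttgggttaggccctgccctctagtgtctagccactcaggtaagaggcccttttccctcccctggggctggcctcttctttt
Krt18 (chr15:102027966-102028215, plus strand): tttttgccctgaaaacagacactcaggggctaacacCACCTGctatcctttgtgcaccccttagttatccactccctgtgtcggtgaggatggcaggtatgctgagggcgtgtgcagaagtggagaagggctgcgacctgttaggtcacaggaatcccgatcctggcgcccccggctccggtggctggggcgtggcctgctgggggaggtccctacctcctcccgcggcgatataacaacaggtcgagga
Cldn4 (chr5:134946935-134947184, minus strand): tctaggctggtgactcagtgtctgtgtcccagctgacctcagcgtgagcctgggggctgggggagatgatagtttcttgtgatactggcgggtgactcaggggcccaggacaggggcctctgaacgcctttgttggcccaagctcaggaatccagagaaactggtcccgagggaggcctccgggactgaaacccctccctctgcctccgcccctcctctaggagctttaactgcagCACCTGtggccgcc
Each of the 4 windows held 1 match to CACCTG, whose first base lay 44 bases before the start in Krt7, 111 in Krt8, 214 in Krt18 and 14 in Cldn4. The windows of Krt42 and Vim, which also rose in ΔY cells, held no such match. The 4 genes shown are thus those of the 6 that rose whose window holds the motif, so 4 of 4 is not a share to compare. Windows of Cldn6, Cldn7, Epcam and Krt5, whose male change did not pass with all male libraries, did hold it. Among all 32817 distinct windows of the table, 17.2% held CACCTG or its reverse complement, and among the 19 windows of the 16 named genes with an entry, 8 did. Another 6 motifs were searched on both strands. The GC box GGGCGG was in 10 of the 19 windows, where 32.7% of all windows held it. For the AP-2 motif GCCNNNGGC the count was 7, against 13.7% of all. Both counts include overlapping windows of Cldn12 that hold the same sites, so the 19 windows are not independent. The TEAD motif GGAATG was in 3, against 12.6%. The TATA box TATAAA was in 2, against 12.4%, and the AP-1 motif in 1, that of Cldn4, against 6.75%. AACNGGTT (GRHL) was in no window of the 19 and in 1.78% of all. In Krt7, a GCCNNNGGC match and a GGGCGG match overlapped. A match describes letters and is not evidence of binding. The other 8 named genes, Krt19, Cldn25, Cdh1, Cdh2, Cdh3, Cdh4, Cdh5 and Cdh11, had no entry.

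The keratins of low counts held the strongest contrast of all keratins between the sexes. Krt23, a type I keratin, had 1.01, 1.10 and 0 normalized counts in fl/fl and 8.62, 10.9 and 11.1 in Δ/Δ, and 6.98, 3.10 and 11.5 in flY and 0, 1.01 and 0 in ΔY. It rose in females (2.79 ± 0.43, limma adjusted p = 2.52e-05) and fell in males (-2.56 ± 0.61, adjusted p = 0.0351), and the difference was -5.35 ± 0.71 (adjusted p = 0.000152). Krt78 fell in both sexes, from 5.03, 6.59 and 3.34 to 1.57, 0.84 and 0 in females and from 15.0, 9.30 and 23.0 to 1.62, 1.01 and 5.17 in males (adjusted p = 0.0483). The male calls of Krt23 and Krt78 were both lost without flY library A or C or without ΔY library B or C, with changes of -2.89 to -2.18 for Krt23 (adjusted p = 0.0733 to 0.148) and -2.78 to -1.97 for Krt78 (adjusted p = 0.0622 to 0.19), and limma voom passed Krt23 but not Krt78. The difference between the sexes in Krt23 passed in all 12 fits with 1 library left out. Krt1, Krt15 and Krt79 fell in females, all from at most 5.56 normalized counts, and Krt28, with no read in fl/fl, passed as higher at up to 3.03. The calls of Krt1 and Krt79 were each lost in 4 of 6 fits with 1 library left out (adjusted p = 0.0602 to 0.224). Krt13 had no read in fl/fl or ΔY and 1.99, 2.07 and 5.75 normalized counts in flY. Over the 54 genes of the families with a mean under 3 outside flY, summed counts were 172 and 175 in flY libraries A and C and 29.3 to 53.8 in the other 10 libraries. The choice of genes by low counts outside flY itself favours higher sums in flY, and the 54 include Krt13, Krt28 and Krt78. The male falls of Krt23 and Krt78 and the differences of Krt13 and Krt28 stand beside these higher sums, whose part in these results was not tested. Krt10, the epidermal type I chain of the suprabasal layers, had means of 49.0, 41.0, 57.9 and 46.5 in fl/fl, Δ/Δ, flY and ΔY, with no change that passed.

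Of 22 cadherins tested in females, 7 fell (Cdh1, Cdh2, Cdh11, Cdh12, Cdh20, Cdh22 and Cdh24) and 5 rose (Cdh3, Cdh4, Cdh5, Cdh6 and Cdh9). These are 31.8% and 22.7%, near the 24.7% and 25.4% of all genes. The call of Cdh9, at means of 3.59 and 7.78, was lost in 5 of 6 fits with 1 library left out (adjusted p = 0.0733 to 0.151). Cdh1 fell slightly, from 1887, 1994 and 1883 normalized counts in fl/fl to 1563, 1556 and 1725 in Δ/Δ (-0.25 ± 0.06, limma adjusted p = 0.00123). Male libraries had 1570, 1691 and 1571 in flY and 1940, 1812 and 1696 in ΔY (0.17 ± 0.11, adjusted p = 0.341), and the sexes differed by 0.42 ± 0.11 (adjusted p = 0.0158). Cdh2 fell with it, from 167, 183 and 200 to 125, 126 and 146 (-0.47 ± 0.11, adjusted p = 0.00127), so a fall of Cdh1 was not accompanied by a rise of Cdh2. Per kb, Cdh1 stood at 16.6 to 19.9 times Cdh2 in fl/fl and at 20.9 to 22.1 times in Δ/Δ. In males Cdh2 had 73.8, 68.2 and 67.5 in flY, and 201 in ΔY library A against 78.0 and 81.7 in libraries B and C (0.63 ± 0.34, adjusted p = 0.276), and the ratio was 37.5 to 43.7 in flY, 17.0 in ΔY library A and 40.9 and 36.6 in B and C. The difference between the sexes in Cdh2 did not pass (1.10 ± 0.38, adjusted p = 0.0552), but passed under 6 alternatives, at 0.66 without ΔY library A (adjusted p = 0.0132).

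Cdh3 lies 46.4 kb before Cdh1 on the same strand of chromosome 8 and moved the other way in females. It had 189, 181 and 151 normalized counts in fl/fl and 221, 194 and 214 in Δ/Δ (0.28 ± 0.10, limma adjusted p = 0.0327), a call that was lost without fl/fl library C or without Δ/Δ library A or C and on scaling to total reads (adjusted p = 0.101 to 0.176). Male values were 365, 370 and 358 in flY and 413, 405 and 341 in ΔY (0.08 ± 0.13, adjusted p = 0.7). Levels in the 2 tables were normalized by the authors for each sex or for both together, which is not stated, so the higher male level of Cdh3 was not tested.

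Cdh6 (K-cadherin) showed the largest opposite changes of the cadherins. It had 5.03, 6.59 and 5.56 normalized counts in fl/fl and 75.2, 62.3 and 61.6 in Δ/Δ, a rise of 3.33 (SE 0.27, limma adjusted p = 9.87e-09). The male order was the reverse, at 62.8, 69.3 and 46.0 in flY and 7.30, 24.3 and 26.9 in ΔY. The ΔY libraries lay below the flY libraries without overlap, but the male change of -1.72 ± 0.48 did not pass (adjusted p = 0.0577), whereas without ΔY library A it was -1.16 and passed (adjusted p = 0.0187). The difference between the sexes was -5.05 ± 0.56 (adjusted p = 4.02e-05). Cdh5 (VE-cadherin, of endothelium) had the same order, with 9.05, 13.2 and 16.7 in fl/fl, 36.8, 40.4 and 42.4 in Δ/Δ, 44.9, 37.2 and 50.3 in flY and 1.62, 24.3 and 21.7 in ΔY. It rose by 1.59 in females (SE 0.28, adjusted p = 9.69e-05), its male change was -1.97 ± 0.77 (adjusted p = 0.155), and the difference was -3.55 ± 0.91 (adjusted p = 0.0126). Without ΔY library A the male change of Cdh5 was -0.90, and without flY library B as well it was -1.02 and passed (adjusted p = 0.0143).

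Markers of endoderm rose with both genes in females, and in males only some of them were lower in ΔY. The 13 genes of the visceral or primitive endoderm list summed to 606 to 644 normalized counts in fl/fl, 7531 to 7722 in Δ/Δ, 3087 to 5761 in flY and 1021 to 7726 in ΔY, and all 13 rose in females. In males 1 of the 13, Sox17, passed as lower and 0 passed as higher. Gata6, a factor of primitive endoderm, had 31.2, 38.4 and 36.7 in fl/fl, 643, 658 and 556 in Δ/Δ, 310, 412 and 296 in flY and 39.8, 212 and 205 in ΔY. Other markers on the list had the opposite male order in ΔY libraries B and C. Apob had 75.8, 244 and 89.1 in flY and 60.9, 861 and 902 in ΔY, and Cubn had 1178, 2815 and 1157 in flY and 363, 3477 and 3663 in ΔY. The lowest ΔY library for Gata6, for Cdh6 and for Cdh5 was library A. For Krt19, Krt8 and the claudins that fell in Δ/Δ, the endoderm genes had the opposite direction in females. In ΔY, library A was the lowest for the endoderm list (1021) and also for Krt19 (337) and Krt8 (3129). The part of endoderm cells in the cadherin, keratin and claudin changes was not tested.

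**Figure D4:**
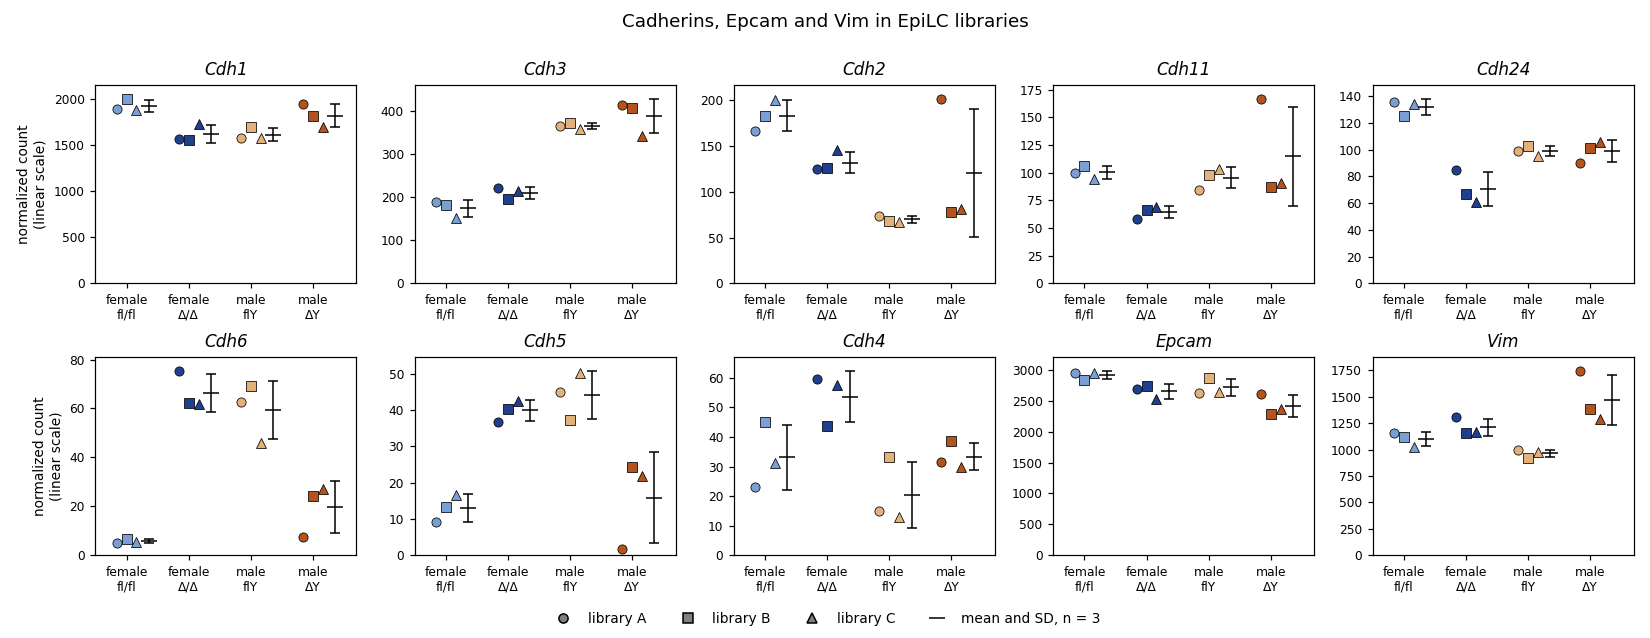
Normalized counts of 8 cadherins, Epcam and Vim in each of the 12 libraries, on linear axes that start at 0, with the mean and SD of the 3 libraries beside them. Cdh6 and Cdh5 were high in Δ/Δ and flY and low in fl/fl and ΔY, and ΔY library A lay apart from B and C for Cdh2 (201) and Cdh11 (166).

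Cdh11 (OB-cadherin), a cadherin of mesenchyme, and Cdh24 fell in females. Cdh11 went from 99.6, 107 and 94.5 normalized counts to 58.0, 66.5 and 68.7 (-0.63 ± 0.14, limma adjusted p = 0.000985) and had 84.7, 98.2 and 103 in flY and 166, 87.2 and 91.0 in ΔY (0.20 ± 0.27, adjusted p = 0.645). Cdh24 went from 136, 125 and 135 to 84.6, 66.5 and 60.6 (-0.90 ± 0.14, adjusted p = 2.81e-05) and had 98.7, 102 and 94.9 in flY and 90.1, 101 and 106 in ΔY (0.0026 ± 0.18, adjusted p = 0.994). The changes differed between the sexes for Cdh24 (0.91 ± 0.21, adjusted p = 0.00817) and did not pass for Cdh11 (0.84 ± 0.31, adjusted p = 0.0674). Cdh4 (R-cadherin) had 23.1, 45.0 and 31.1 in fl/fl and 59.6, 43.8 and 57.6 in Δ/Δ, which overlap, and passed as higher (0.72 ± 0.24, adjusted p = 0.0177), but not without fl/fl library A or without Δ/Δ library A or C (adjusted p = 0.0845 to 0.107). Its male values were 15.0, 33.1 and 12.9 in flY and 31.7, 38.5 and 30.0 in ΔY (0.80 ± 0.42, adjusted p = 0.262). The male change of Cdh4 passed at 1.20 without flY library B (limma adjusted p = 0.0390) and at 1.23 without ΔY library A as well (adjusted p = 0.0161).

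With all 6 male libraries, no cadherin passed in males by limma on log2(normalized count + 1), and limma voom passed 1, Cdh6, as lower. Without flY library B and ΔY library A, 10 of the 23 passed as lower and 1, Cdh4, as higher, where 25.3% of all genes fell and 17.7% rose. Of these 10, 6 had a mean under 10. Of the cadherins of low counts, Cdh12 fell in females from 20.1, 16.5 and 5.56 normalized counts to 0, 0.84 and 1.01 (-3.12 ± 0.49, adjusted p = 3.01e-05). Cdh9 and Cdh10 were each carried in ΔY by library A, with 33.3 against 0 and 0 for Cdh9 and 39.0 against 7.10 and 6.21 for Cdh10.

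Epcam, second of the 98 genes per kb in fl/fl, changed little. It had 2951, 2847 and 2959 normalized counts in fl/fl and 2691, 2746 and 2526 in Δ/Δ, a fall of 0.14 (SE 0.05, limma adjusted p = 0.0397) that was lost without fl/fl library A or C or without Δ/Δ library C (adjusted p = 0.108 to 0.151). In males it had 2629, 2880 and 2650 in flY and 2621, 2285 and 2363 in ΔY (-0.17 ± 0.11, adjusted p = 0.363). Without flY library B and ΔY library A, the male change of Epcam was -0.18 and passed (limma adjusted p = 0.0214). Vim had 1158, 1114 and 1027 in fl/fl and 1304, 1159 and 1168 in Δ/Δ (0.14 ± 0.06, adjusted p = 0.0843). It rose in males, from 993, 924 and 974 to 1741, 1380 and 1292 (0.60 ± 0.13, adjusted p = 0.0276), and the sexes differed by 0.46 ± 0.15 (adjusted p = 0.042). The male call for Vim was lost without flY library A or C or without ΔY library B or C (adjusted p = 0.0537 to 0.122), and the difference was lost without any 1 of 7 libraries (adjusted p = 0.0569 to 0.103). Vim thus rose in ΔY cells beside Krt8, Krt18 and Cldn4 and beside the feeder list given above, in which Vim is not counted.

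The genes that work with claudins and cadherins were followed by lists, to be read beside the shares of all genes, of which 24.7% fell and 25.4% rose in females, 3.59% fell and 4.21% rose in males and 10.6% had a higher change in males. Of 16 tight junction partners tested, 9 fell and 1 rose in females and 4 rose in males, and 7 had a higher change in males. Tjp1 (ZO-1), which ties claudins to actin, went from a mean of 3573 ± 56.8 (SD, n = 3) to 3145 ± 48.0 in females (-0.18 ± 0.05, limma adjusted p = 0.00513) and from 3081 ± 15.6 to 3741 ± 279 in males (0.28 ± 0.11, adjusted p = 0.153). Cgn (cingulin) fell from 1476 to 1037 in females (-0.51 ± 0.05), and F11r, an adhesion protein of the junction, had 735 and 696. Of 11 catenins and nectins, 7 fell in females and 3 rose in males. Ctnna1 (alpha-catenin), which links cadherins to actin, went from 5396 to 4954 in females (adjusted p = 0.0492) and from 4056 to 5604 in males (adjusted p = 0.0449), and Ctnnd1 (p120), which holds cadherins at the membrane, rose in males from 2692 to 3798 (adjusted p = 0.0248). Ctnnb1 (beta-catenin) had 6538 and 7131 in females and 5577 and 7160 in males and did not pass in either. Of the desmosome genes, whose plaques anchor keratins, 8 of 12 tested fell in females and 1 of 13, Dsc2, rose in males. Dsp (desmoplakin) fell in females from 1568 to 802 (-0.97 ± 0.06) and had 1269 and 1590 in males, with a difference between the sexes of 1.30 ± 0.23 (adjusted p = 0.00134).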

How the data were processed

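RNA-Seq reads of 50 bp were mapped by the authors to mm9 with TopHat2 2.1.0 and Bowtie2 2.2.6.0, allowing up to 1 mismatch and keeping uniquely mapped reads. The gene annotation and strand setting of the counting are not given in the sources used here. The signal values deposited by the authors, 1 table per sex, are the mean normalized count of each genotype, that is, reads divided by the size factor of a library and averaged over 3 libraries. The tables also hold columns of the authors' own comparison (fold changes and p-values), which were not used. Whether the size factors were set jointly for both sexes is not stated, so levels were not tested between sexes.

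Reads of each library were recovered as the whole numbers that give the deposited means. All genes searched (means up to 10000) had 1 solution, and 22808 genes were recovered in all 12 libraries. Libraries A, B and C, ordered by falling size factor, cannot be tied to labelled replicates. They held 5516216 to 11092731 recovered reads, which do not include genes above that limit. Reads were not collapsed to molecules, so the precision that counting gives covers counting error only.

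Log2(normalized count + 1) was tested with limma 3.58.1 (eBayes with an intensity trend) in R 4.3.3, per sex and, over all 12 libraries, for the interaction of sex and genotype, with Benjamini-Hochberg adjustment over all genes tested and a threshold of 0.05. Fold changes on this scale understate those of low genes. The p-values measure the spread between 3 lines per genotype, and an exact permutation test of 3 against 3 cannot go below 0.1. Alternatives were a pseudocount of 0.1, a minimum mean of 10, scaling to total reads, limma voom, and leaving out libraries. The fits and the recovery were tested on simulated data. The recovery and the permutation tests ran in Python 3.11.15 with numpy 2.4.6, and the recovery also used numba 0.67.0. The tables were joined with pandas 2.3.3, and figures were drawn with matplotlib 3.10.9.

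Exon lengths and positions came from GENCODE vM1 (mm9), which placed 96 of the 98 genes, and promoter windows from RefSeq (GRCm38.p6). The members and lists were chosen with earlier results of these data known. Genes were named with values where the mean was at least 50, where a test passed with a mean of at least 10, or as fixed markers of epithelium, which gave 24 genes. Of each further list, the 4 genes with the largest mean, or genes named as called, were described, except for a few genes that are not reported here.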

Additional observations from a re-analysis of the deposited data

Results flagged for a closer look

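The change in knockout cells differed between the sexes for 14 of the 24 named genes by the limma interaction test, which compares the male with the female log2 change. Passing this test with a mean of at least 10 was itself a ground for naming a gene, so 14 of 24 is not a share to compare. Of all 98 genes, 12 had a higher and 5 a lower change in males, beside 10.6% and 10.7% of all genes tested. The male change was higher for Krt7 by 3.55, Krt19 by 2.74, Krt20 by 2.40, Krt8 by 2.03 and Krt18 by 1.72. It was higher for Cldn3 by 1.61, Cldn4 by 1.496, Cldn7 by 1.04 and Cldn6 by 0.52, and for Cdh24 by 0.91, Vim by 0.46 and Cdh1 by 0.42. The male change was lower for Cdh6 (-5.05) and Cdh5 (-3.55).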

How the results depend on the processing

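No paired analysis was possible because the recovered libraries carry no replicate number. Of 908 values of the 24 named genes under an alternative, 829 kept their direction and side of the threshold, 29 lost the threshold, 29 gained it and 21 changed direction, none of them past the threshold. The number of genes changed in females was 24 to 36 under all alternatives. In males it was 41 without flY library B and ΔY library A (chosen with the data in view) and 3 to 30 with 1 library left out, with 30 without flY library B and 17 without ΔY library A. The number that differed between the sexes was 43 without both and 16 to 36 with 1 library left out. Kdm5c in males passed without both (-0.22, limma adjusted p = 0.021). Direction changed for Cdh24 in males scaled to total reads and by limma voom (-0.011 each; -0.045 to 0.068 with 1 library left out), Krt5 in males with a pseudocount of 0.1 (0.043; -0.35 to 0.52), Cdh11 in males without both libraries (-0.071; -0.094 to 0.37), and Epcam between the sexes scaled to total reads (0.025; -0.088 to 0.012). With 1 library left out it also changed for Krt14 (-0.030 to 0.63) and Cldn6 (-0.021 to 0.15) in males and for Krt42 (-0.13 to 0.64) and Cdh4 (-0.17 to 0.48) between the sexes. The cause was not tested. Genes with a mean under 10 rest on few reads, where differences may not be detectable at this depth.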

Other observations

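Beside the counts that follow, 25.4% of all genes rose and 24.7% fell in females, and 4.21% rose and 3.59% fell in males. Factors of the epithelial-mesenchymal transition did not move one way. Of 10 tested in females, Snai1 and Zeb1 rose and Snai2 and Zeb2 fell, and in males Zeb1 rose. Snai1 went from a mean of 73.1 ± 9.03 (SD, n = 3) normalized counts to 352 ± 37.5 in females (log2 change 2.25 ± 0.11 (SE)) and from 261 ± 23.5 to 173 ± 63.0 in males (-0.66 ± 0.27, limma adjusted p = 0.162), and the sexes differed by -2.92 ± 0.32. Zeb1 went from 39.4 to 139 in females (1.79 ± 0.17) and from 52.5 to 123 in males (1.24 ± 0.23, limma adjusted p = 0.0144).

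Of 15 epithelial regulators, 4 rose and 5 fell in females, shares near those of all genes, and 2 rose in males. Esrp1, a splicing factor of epithelia, fell from 1057 to 864 in females and had 1114 and 807 in males (limma adjusted p = 0.0578). Klf5 rose by 1.12 on the log2 scale in females, to a mean of 872, and the membrane protease St14 fell from 1139 to 814. Spint2, an inhibitor of such proteases, rose from 748 to 1240 in males.

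Of 13 other intermediate filaments, 3 rose and 6 fell in females and 2 rose and 2 fell in males. Nefl, a neurofilament chain, fell in both sexes, from 1241 to 502 in females and from 945 to 138 in males (limma adjusted p = 0.00143). Lmna, a nuclear lamin, rose in both, from 387 to 801 and from 443 to 888. Nes (nestin) fell from 2208 to 1717 in females, Lmnb2 fell from 1121 to 786, and Lmnb1 had 6478 and 6237.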
